A study of Mus musculus with 9 samples.

Results

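Control-only KDM6A regions without IgG are stretches of the mouse genome that were listed as enriched in both KDM6A libraries of control embryonic stem cells, in neither KDM6A library of MTX cells, and that did not overlap an interval of an IgG list. They were found by merging the intervals of the 4 KDM6A lists where these touched or overlapped. Kept were regions on the autosomes other than chromosome 11 with an interval of both control lists and of neither MTX list, and with no overlap with the IgG list. This gave 1480 regions of 73553 merged regions on these 18 autosomes, and of 82424 on all chromosomes. The presence and absence of intervals chose the regions, so the difference between control and MTX cells at these places is how they were picked and not a result.

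KDM6A was mapped in Sv129 mouse embryonic stem cells by ChIP-seq, which sequences the DNA that an antibody recovers together with its target protein. Control cells have the genotype label WT, and MTX cells the genotype label folate deficiency. The treatment protocol, 0.12 µM MTX for 24 h, is attached to every sample and was taken to hold for the samples with MTX in their titles. All cells came from 1 line kept on gelatin with serum and leukemia inhibitory factor, and all carry the same treatment label for neurodevelopment. Each condition had 2 KDM6A libraries. A single IgG library, an immunoprecipitation with a nonspecific antibody, came from MTX cells, and the 4 inputs have no list of their own here. The IgG filter on control-only regions thus rests on 1 library of the other condition. Nothing in the labels ties the libraries of a condition to separate cultures, so the spread between them may be technical. Intervals show where DNA was enriched and give no expression, so the cell type was not checked against marker transcripts.

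KDM6A, also called UTX, removes methyl groups from lysine 27 of histone H3, a mark that Polycomb repressive complex 2 places on silent genes. It works within the KMT2C and KMT2D complexes, which methylate lysine 4 of histone H3 at enhancers. Much of its known binding therefore lies at enhancers away from gene starts, as well as at promoters. KDM6A is not a sequence-specific DNA-binding factor.

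Few of the regions covered a promoter, as over the whole control 2 list, and the promoters that both control libraries covered were poor in CpG dinucleotides, the sites of DNA methylation. RefSeq promoter windows (GRCm38.p6, 250 bases before to 50 after a start) were available for 15186 of the 19056 protein-coding genes on these autosomes, as 18524 windows. Of these, 52 windows of 48 genes lay wholly under a control interval of a control-only region, and 12 windows of 12 genes lay under intervals of both control libraries. This was 2.23 windows per 100 intervals of the regions in control 1 and 2.01 in control 2, beside 3.65 and 1.81 over all their intervals. The 12 genes included 6 olfactory receptor genes, 1 vomeronasal receptor gene, Zfp953, Mep1a, Med27, Il20 and Pmf1. The share of receptor genes among all windows is not given here. Shown are the promoters of the 2 best-ranked receptor genes and of Il20, an interleukin, with the promoter of Pmf1, a kinetochore component, which held the most CpG of the 12. Each is given 5′ to 3′ on the strand of the gene, with CG dinucleotides in capitals.
Vmn2r14 promoter (chr5:109224573-109224872, minus strand): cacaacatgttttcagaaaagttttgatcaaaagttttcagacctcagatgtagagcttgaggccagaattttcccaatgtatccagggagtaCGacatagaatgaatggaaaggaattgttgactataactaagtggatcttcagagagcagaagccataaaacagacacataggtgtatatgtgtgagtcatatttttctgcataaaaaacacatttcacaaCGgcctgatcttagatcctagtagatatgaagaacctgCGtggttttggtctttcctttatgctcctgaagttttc
Olfr1313 promoter (chr2:112072534-112072833, minus strand): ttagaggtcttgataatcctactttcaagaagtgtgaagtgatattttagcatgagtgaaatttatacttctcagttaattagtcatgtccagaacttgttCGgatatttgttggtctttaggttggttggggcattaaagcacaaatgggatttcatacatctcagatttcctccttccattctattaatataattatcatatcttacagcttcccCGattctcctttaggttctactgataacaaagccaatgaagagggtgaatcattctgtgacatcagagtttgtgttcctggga
Il20 promoter (chr1:130911247-130911546, minus strand): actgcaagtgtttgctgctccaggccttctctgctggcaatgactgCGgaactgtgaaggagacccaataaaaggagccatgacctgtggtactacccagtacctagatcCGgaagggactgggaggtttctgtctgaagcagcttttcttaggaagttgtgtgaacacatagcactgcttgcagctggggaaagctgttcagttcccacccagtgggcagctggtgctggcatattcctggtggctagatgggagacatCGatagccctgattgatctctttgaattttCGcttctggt
Pmf1 promoter (chr3:88410348-88410647, minus strand): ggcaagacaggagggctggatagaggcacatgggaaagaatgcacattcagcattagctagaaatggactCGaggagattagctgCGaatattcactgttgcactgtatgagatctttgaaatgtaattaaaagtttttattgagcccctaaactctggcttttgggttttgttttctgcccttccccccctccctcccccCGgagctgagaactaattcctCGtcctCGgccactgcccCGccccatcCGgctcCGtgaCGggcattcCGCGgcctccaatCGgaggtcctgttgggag

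These windows held 3 CG dinucleotides at Vmn2r14, 2 at Olfr1313, 4 at Il20 and 12 at Pmf1. The median over the 12 windows under both control libraries was 2.5, against 13 over all 18524 windows, and their median G+C content was 44.7% against 56.7%. Without the 7 receptor genes the other 5 windows had a median of 6. The hexamer GGGCGG, the GC box, which itself holds a CG, occurred on either strand in 1 of the 12 windows (8.33%) and in 46.7% of all windows, and TATAAA on either strand in 2 of the 12 (16.7%) and in 12.8% of all. Base content at promoters differed between the control libraries over their whole lists. Windows under any control 1 interval had a median of 18 CG, a GC box in 51.7% and TATAAA in 11.4%. Windows under any control 2 interval had a median of 2 CG, a GC box in 19.7% and TATAAA in 29.0%, so low CG and GC box values were found over the whole control 2 list. In the control-only regions, 22 windows under control 1 alone had a median of 15.5 CG, beside 7 in 18 windows under control 2 alone. Il20 showed 113 immunoprecipitated against 70 background reads in control 1 (fold 2.14) and 128 against 97 in control 2 (fold 1.38). Pmf1 had 147 against 155 reads (fold 1.25) and 111 against 89 (fold 1.30). The fold, as deposited, divides immunoprecipitated by background reads and scales the quotient by 1 constant per list, so at a fold of 1 the immunoprecipitation is level with its scaled background. The lists have no header, so the meaning of these columns was read from their arithmetic, and which library served as background is not named.

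Most of the regions lay inside genes or away from them, and few at gene ends. By midpoint, 756 of the 1480 (51.1%, exact binomial 95% interval 48.5 to 53.7%) were inside a protein-coding gene. A further 677 (45.7%, 43.2 to 48.3%) were away from genes and 47 (3.18%, 2.34 to 4.20%) lay within 1 kb of a gene end. Away means a midpoint outside every gene span and over 1 kb from any gene end. Parts of such regions can overlap a gene, and their median distance to the nearest gene was 52680 bp. MTX-only regions without IgG, chosen by the mirrored rule, were inside genes in 48.3% (45.3 to 51.4%) and at gene ends in 2.94% (2.02 to 4.12%) of 1090 cases. Regions of all 4 KDM6A libraries without IgG were inside genes in 65.7% (60.2 to 71.0%) of 312 cases, and all merged regions in 45.9%. Gene ends held 3.81% of all merged regions. The share of control-only regions at gene ends depended on its definition, with 5.68% within 2 kb of an end and 8.85% when any part of the region counted. It was 1.65% in the better 50% of each list and 1.63% in lists of equal length. The intervals of the control-only and MTX-only shares overlap at each of the 3 places, and cover counting error only. No test was made over regions, which are not replicates, and with 2 libraries against 2 an exact permutation test cannot go below p = 0.333. The gene table gives spans without exons, so exons and introns are not told apart here.

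**Figure D1:**
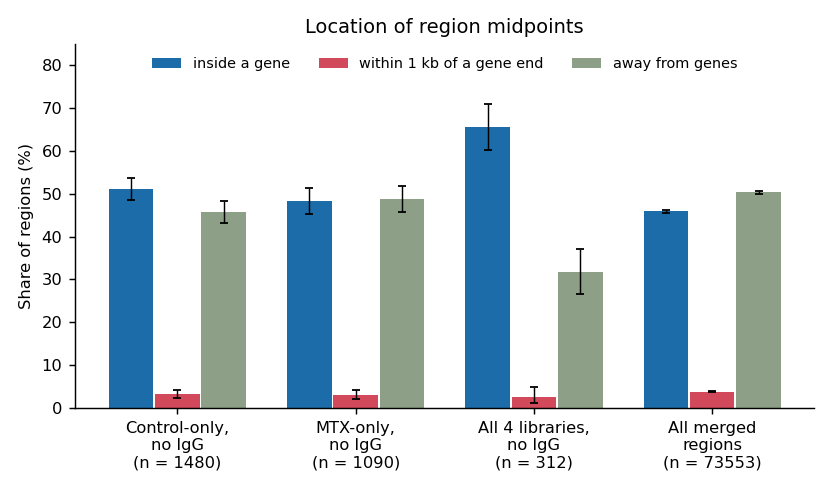
Share of regions (%, vertical axis) by the place of their midpoint in 4 sets of merged regions on the same autosomes. Bars are shares and whiskers exact binomial 95% intervals. Control-only and MTX-only regions have 51.1% and 48.3% inside genes, and gene ends hold under 4% in every set.

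Every chromosome used held control-only regions. Control-only regions made up 2.01% of all merged regions and ranged from 1.61% on chromosome 3 to 2.35% on chromosome 6, where 115 of 4891 regions qualified. MTX-only regions made up 1.48%, from 0.798% on chromosome 18 to 1.90% on chromosome 10. Chromosome 1 held the most control-only regions, 147, and chromosome 19 the fewest, 21. Neighbouring control-only regions lay a median of 711 kb apart, and 47 of the 1462 gaps between them were 20 kb or less.

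Reads at these places had medians close to those of the whole control lists. The intervals of control 1 in the regions had a median of 81 immunoprecipitated and 68 background reads, beside 78 and 64 over all 39187 control 1 intervals on these autosomes. For control 2 the medians were 125 and 91 reads, beside 126 and 91 over 15999 intervals. Per kb of interval, control 1 had 27.9 immunoprecipitated and 23.1 background reads, and control 2 had 33.0 and 23.6. Median folds were 1.62 in control 1 and 1.45 in control 2, against 1.66 and 1.45 over all intervals of those libraries. The reads of control intervals belong to the contrast that chose the regions and are given as a description. MTX libraries had no interval there and thus no reads listed. The deposited adjusted p, which compares each immunoprecipitation with its own background by a Poisson test and not control with MTX, was under 0.05 in 88.5% of the regions' intervals in control 1 and 87.1% in control 2. Over all intervals of these lists the shares were 87.1% and 84.4%. Both libraries were under 0.05 in 1154 regions, control 1 alone in 159, control 2 alone in 134 and neither in 33. A fold of 2 or more in both libraries was reached by 56 regions (3.78%), and 78 (5.27%) had a fold under 1 in at least 1 of them.

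**Figure D2:**
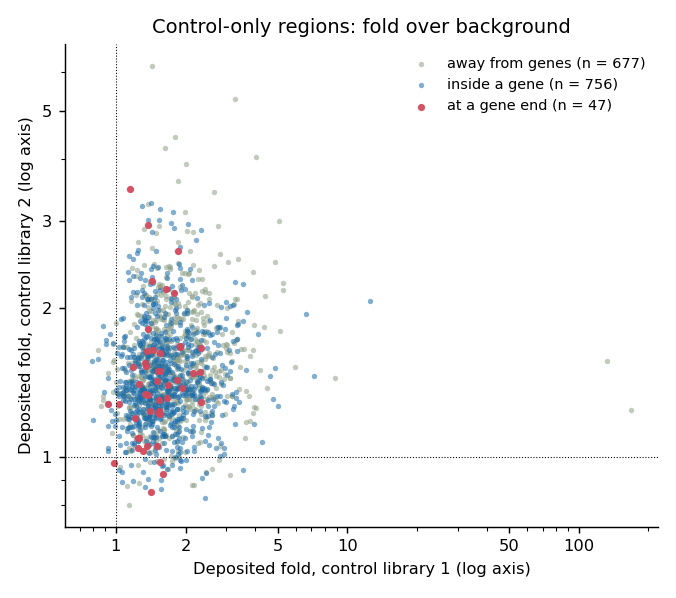
Deposited fold over background in control library 1 (horizontal, log axis) and control library 2 (vertical, log axis). Each point is 1 of the 1480 control-only regions with its best interval per library, coloured by place, and dotted lines mark a fold of 1. The medians are 1.62 and 1.45, and the 2 points above 100 have 0 background reads in control 1.

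The control libraries ranked the regions differently. Across the 1480 regions the log2 folds of control 1 and control 2 had a Pearson r of 0.11 and a Spearman rho of 0.13, as a description without a test. Background reads per kb had an r of 0.27 and immunoprecipitated reads per kb an r of 0.05. All points share the same 2 libraries and their depths. By deposited p, 16 regions were in the better 10% of both lists, and 126 in the better 25% of both. Of the regions' intervals, 10.3% in control 1 and 10.4% in control 2 were in the better 10% of their list. The weak relation was not particular to these regions. Log2 folds had an r of 0.11 in regions of both control lists without an MTX list (IgG filter not applied). With 1 MTX list r was 0.12, and with both 0.23. At 2 regions the fold of control 1 rests on a background of 0 reads, for which the deposited fold was computed with 0.25 reads. One, on chromosome 10 (130310801 to 130315600), had 32 reads in control 1 with a listed fold of 169, and 124 against 104 reads with a fold of 1.24 in control 2. The other, on chromosome 1 (7890401 to 7893800), had 25 reads with a listed fold of 132, and 105 against 70 with 1.56.

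Intervals of the control libraries covered the same bases only in part. They overlapped in 1434 regions and merely touched in 46. The bases in common had a median of 1800 bp, or 76.9% of the shorter library's intervals, and in 490 regions 1 library lay wholly inside the other. Regions were 200 to 15200 bp wide, with a median of 5200 bp. MTX-only regions had a median width of 5400 bp and regions of all 4 libraries 10100 bp. Width is tied to the rule, since the widths of merged regions add up intervals of more lists. Among the 4578 regions of both control lists, the control intervals spanned a median of 5200 bp where no MTX list joined (1873 regions, IgG filter not applied), 6400 bp with 1 MTX list (1542 regions) and 8800 bp with both (1163 regions). Their median folds were 1.62, 1.58 and 1.44 in control 1 and 1.45, 1.40 and 1.31 in control 2. IgG overlapped 21.0%, 39.0% and 73.2% of these groups.

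Before the IgG filter, 1873 merged regions (2.55%) were control-only, and 393 of them were left out for an IgG overlap. The 1480 regions hold 3.89% of the control 1 intervals on these autosomes and 9.33% of those of control 2, whose list is the shorter, at 21228 against 44838 intervals in all. Dropping a control library loosens the rule by its construction: 8800 regions qualified without control 1 and 25803 without control 2. The 5 lists held 3251202 to 4192029 immunoprecipitated reads within intervals, and their full depth is unknown.

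An MTX interval was often near. The nearest one lay a median of 9.8 kb away, and within 1 kb at 111 regions (7.50%) and 5 kb at 458 (30.9%, 28.6 to 33.4%). MTX-only regions had a control interval within 5 kb in 39.4% (36.4 to 42.3%) of cases, with control lists that hold more intervals in all. IgG intervals were a median of 26.3 kb away and within 5 kb of 264 regions. Over 50 kb from any MTX interval were 141 regions, with median folds of 1.79 in control 1 and 1.60 in control 2. The 24 regions just inside the rule, with an MTX interval 200 bp away, had median folds of 1.65 and 1.45. Just outside it, 25 regions of both control lists were joined to MTX intervals that only touched, and 28 by 200 bp of overlap. On the IgG side, 11 regions kept had an IgG interval that touched, and 7 left out overlapped one by 200 bp.

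**Figure D3:**
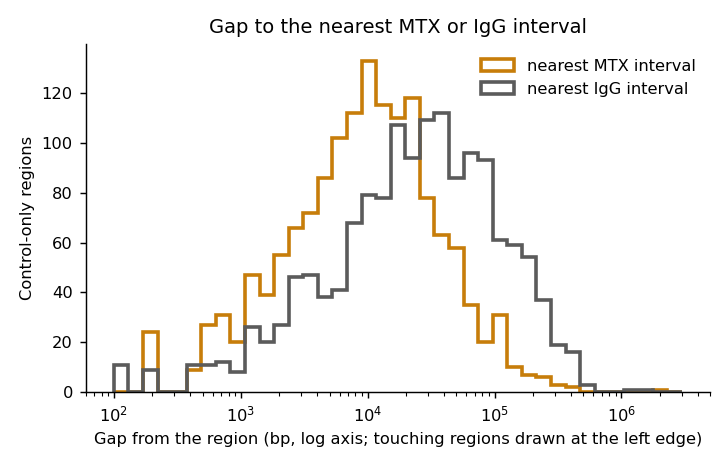
Gap from each of the 1480 control-only regions to the nearest MTX interval and to the nearest IgG interval (bp, log axis). The vertical axis counts regions. Medians are 9.8 kb to MTX and 26.3 kb to IgG, and the 24 regions with an MTX interval 200 bp away form the small step at the left.

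The regions farthest from MTX intervals were picked out after their values were seen. One on chromosome 7 (10001001 to 10002600), 8.86 kb from the vomeronasal receptor gene Vmn2r49, was 1844 kb from an MTX and 1629 kb from an IgG interval, with folds of 1.65 and 2.12. Cadps, which encodes a priming factor of dense-core vesicle release, had regions at 12389401 to 12393000 and 12460601 to 12464600 on chromosome 14. They lay 406 and 334 kb from the nearest MTX interval. The first had 88 against 90 reads in control 1 and 103 against 77 in control 2, and the second 58 against 42 and 88 against 44. Another region, 8.56 kb outside the gene (12357601 to 12364000) and 435 kb from an MTX interval, had 140 against 141 and 105 against 89 reads. Folds at these 3 regions were 1.23 to 2.08.

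Within genes, 775 protein-coding genes had a control-only region in their span or within 1 kb of it, 4.07% of 19056. For MTX-only regions the number was 550 genes (2.89%), and 100 genes had both. Without control 1 the count was 2957 genes, and without control 2 it was 6570. Genes with a control-only region were long, with a median of 101 kb against 17.9 kb over all genes, and genes with an MTX-only region had a median of 96.3 kb. Of genes under 10 kb, 0.613% had a control-only region, rising over the length classes to 28.6% (24.7 to 32.8%) of the 510 genes of 300 kb and over. Per Mb of gene with its 1 kb margins, genes under 10 kb had 0.994 regions. The middle classes had 0.918 to 1.04 and the longest 0.682. A region counted for a gene if any part of it overlapped, and regions had a median width of 5200 bp. This raises the values most in the shortest genes, so they do not tell whether density changes with length. Control 1 intervals numbered 28.0 per Mb in the shortest and 17.0 in the longest class, and control 2 intervals 9.11 and 7.02.

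**Figure D4:**
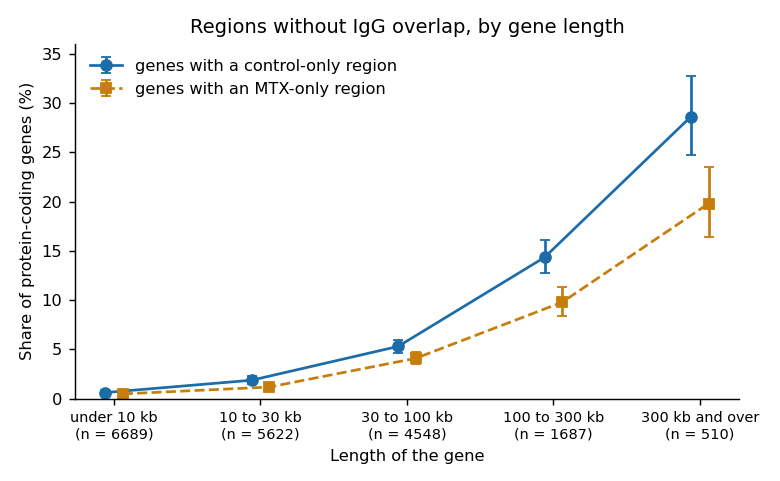
Share of protein-coding genes (%, vertical axis) with a control-only or an MTX-only region without IgG, in 5 classes of gene length. Whiskers are exact binomial 95% intervals. Both shares rise with length, to 28.6% and 19.8% in genes of 300 kb and over.

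In most of these genes KDM6A intervals of MTX cells lay elsewhere in the gene, as they did in most long genes. Of the 775 genes, 641 (82.7%) had an MTX interval at another place, 472 (60.9%) had intervals of both MTX libraries and 517 (66.7%) an IgG interval. Over all genes the shares were 39.2%, 16.5% and 24.0%, and over all genes of 100 to 300 kb they were 82.8%, 56.5% and 60.9%. Of the 242 genes of that length with a control-only region, 97.9%, 83.9% and 81.8% had such intervals, and these shares were not tested against each other. These genes were long, with a median of 125 kb for those with an MTX interval and 19.4 kb for the 134 without one. The 14 genes with 3 or more control-only regions were picked out after their values were seen. Tenm3, a teneurin that guides synaptic partner choice, had 4 regions over 1297 kb, among 37 and 16 control, 19 and 30 MTX and 17 IgG intervals. Ryr3, a calcium release channel of the endoplasmic reticulum, had 4 over 586 kb, among 18 and 13 control, 7 and 11 MTX and 7 IgG intervals. Cenpp, a centromere protein, had 4 over 189 kb, beside 1 MTX-only region. Arl15, Acer3, Copg2, Dlg2, Exoc4, Gli2, Gphn, Macrod2, Ncoa1, Pard3 and Tenm4 had 3 each.

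Neither MTX nor IgG intervals reached 111 of the 775 genes (14.3%). Lacking them is common, since over all genes only 39.2% had an MTX and 24.0% an IgG interval. The share of all genes with neither is not given here. Taken by the better rank of their region, after the values were seen, the 111 genes began with Vmn1r65, a vomeronasal receptor gene, and Calhm4, of the calcium homeostasis modulator family. Ttc9, a tetratricopeptide repeat gene of 36.3 kb on chromosome 12, had 65 against 33 reads in control 1 and 139 against 91 in control 2. Its fold was 2.10 ± 0.72 (SD, n = 2), and the nearest MTX and IgG intervals were 66.2 and 48.0 kb away. Tmem132c, a transmembrane protein gene and the longest of the first 25 at 324 kb, had folds of 2.27 and 1.64, with the nearest MTX interval 113 kb and the nearest IgG interval 445 kb off. Hmox2, the constitutive heme oxygenase, had 122 against 59 reads (fold 2.73) and 115 against 90 (fold 1.33), and its region was 170 kb from an MTX interval. Tlr3, a receptor for viral RNA, had folds of 1.88 and 1.30.

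The best-ranked regions inside genes had control folds of about 1.7 to 12.6. Regions were ranked within each control list by deposited p, then fold, and took the worse of both ranks. Fut8, which adds the core fucose of N-glycans, led with a region on chromosome 12 (77317001 to 77328400). It had 190 against 120 reads in control 1 and 113 against 49 in control 2, and a fold of 2.25 ± 0.22 (SD, n = 2). Its control 1 and control 2 intervals only touched, so the libraries share no base there. Ralgapa2, a subunit of a Ral GTPase-activating complex, had 88 against 39 and 138 against 70 reads on chromosome 2 (146434201 to 146437600), with 2400 bp in common. Stau2, an RNA-binding protein of neuronal mRNA transport, had folds of 3.28 and 2.26 (chr1:16291601-16294800). Col14a1, a fibril-associated collagen, had the widest disagreement: 38 against 4 reads in control 1, a fold of 12.6, and 113 against 57 in control 2, a fold of 2.07. Gna12, a G protein alpha subunit, likewise had 30 against 6 reads (6.61) and 114 against 61 (1.95). The high folds of control 1 at these genes rest on few background reads. Tenm4, a teneurin (3.21 and 2.03), Slc35f1, a solute carrier (3.54 and 2.24), Glra3, a glycine receptor subunit (3.38 and 1.86), Vmn2r120 (3.21 and 1.72) and Dnajc1, a chaperone of the endoplasmic reticulum (3.01 and 1.91), completed the 10. Control 1 had the higher fold at 9 of these 10 genes and at 921 of all 1480 regions, and Fut8 was the exception among the 10. The nearest MTX interval lay 800 bp (Col14a1) to 23400 bp (Gna12) from these 10 regions, at 1400 bp for Stau2 and 2400 bp for Dnajc1. The nearest IgG interval lay 2000 bp (Vmn2r120) to 83600 bp (Gna12) away.

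**Figure D5:**
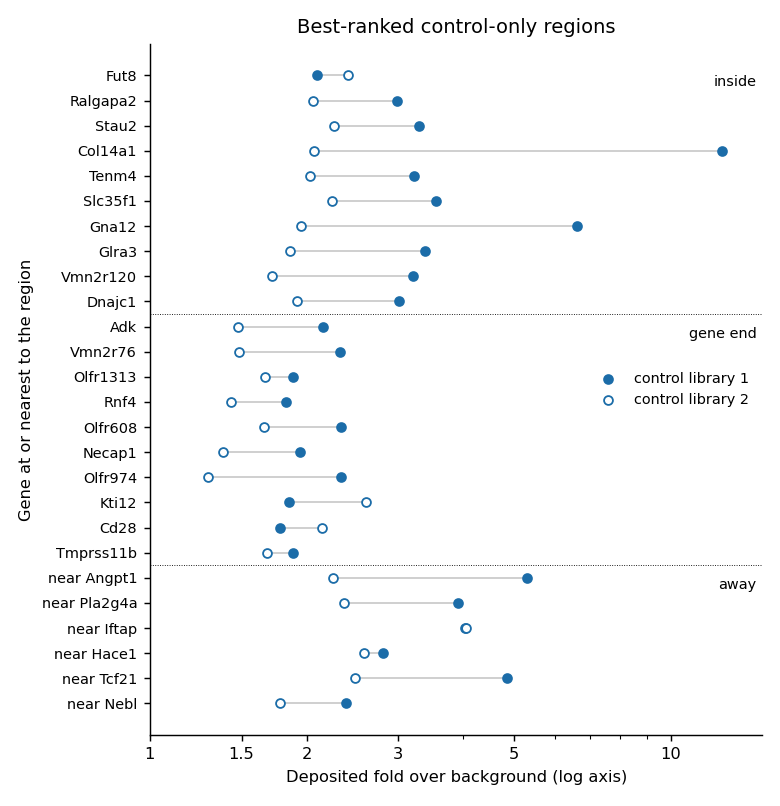
Deposited fold over background (horizontal, log axis) at 26 control-only regions, named by the gene at the region or nearest to it. They are the 10 best ranked inside genes, the 10 at gene ends and the 6 away from genes, without predicted symbols. Filled points are control library 1 and open points control library 2, joined by a line. Folds in control 2 run from 1.29 to 4.05, and the longest line belongs to Col14a1.

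Of the 10 best-ranked genes at gene ends, taken from 47 regions, 4 were chemosensory receptor genes. Among all 19056 genes, 1021 were olfactory and 354 vomeronasal receptor genes, and their share over all gene-end regions is not given here. Adk, adenosine kinase, had 104 against 64 reads in control 1 and 187 against 132 in control 2 at chr14:21443801-21451400, a fold of 1.81 ± 0.48 (SD, n = 2). It had 2 control-only regions, among 11 and 22 MTX intervals over its 396 kb. Rnf4, a ubiquitin ligase that recognises SUMO chains, had 130 against 94 and 166 against 121 reads (1.63 ± 0.28). Kti12, a factor of tRNA modification, had 77 against 55 and 75 against 30 reads (2.23 ± 0.53). Cd28, a T cell costimulatory receptor, had folds of 1.78 and 2.14, and Tmprss11b, a serine protease of epithelia, 1.89 and 1.68. Necap1, a clathrin endocytosis protein, had 1.94 and 1.38 from intervals that only touched. Olfr1313, Olfr608, Olfr974 and Vmn2r76 had means of 1.78 to 1.99, and an IgG interval touched the Olfr1313 region. Receptor genes have near-identical copies among which aligned reads can be split, so these 4 are uncertain. Over the 47 gene-end regions the median folds were 1.51 in control 1 and 1.40 in control 2, beside 1.57 and 1.40 inside genes.

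Away from genes the folds were the highest of the 3 places. The 677 regions there had median folds of 1.70 in control 1 and 1.52 in control 2, beside 1.57 and 1.40 inside genes. Background moved with this: control 1 had 21.4 background reads per kb away from genes and 24.1 inside them, and control 2 had 22.7 and 24.4. Away from genes against inside them, the same order held over all intervals of the lists, with folds of 1.78 away and 1.57 inside in control 1 and of 1.49 and 1.41 in control 2, and background reads of 20.8 and 24.0, and of 23.3 and 24.8 per kb. The part of the background in this difference was not tested. The nearest gene was over 100 kb off in 233 of the 677 and over 500 kb in 47.

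The highest lower fold of the 2 libraries was on chromosome 2 (99957801 to 99960200), 1600578 bp from its nearest gene, Iftap, a gene of ciliary transport. It had 64 against 21 reads in control 1 and 70 against 18 in control 2, and a fold of 4.04 ± 0.01 (SD, n = 2). A region near Angpt1, the ligand of the Tie2 receptor of blood vessels, lay 666 bp from the gene (chr15:42419001-42424000). It ranked best of the named regions, with 56 against 14 and 136 against 63 reads, a fold of 3.77 ± 2.15. Near Tcf21, a mesodermal transcription factor 13457 bp away, folds were 4.85 and 2.47 (chr10:22833601-22836200). Near Pla2g4a, a phospholipase, folds were 3.91 and 2.36, and near Nebl, a sarcomere protein, 2.39 and 1.78. The region nearest to Hace1, a ubiquitin ligase gene 1298655 bp off, had 2.80 and 2.58. From these 6 regions the nearest MTX interval lay 8000 bp (Angpt1) to 43800 bp (Nebl) away. The nearest IgG interval was 1400 bp (Hace1) to 107600 bp (Iftap) off. Of the 12 regions with the highest such lower fold, chosen after their values were seen, 11 were away from genes. The exception was in Pkhd1l1 (2.32 and 2.88). One on chromosome 7 (48099201 to 48102200) had folds of 3.26 and 5.30 and no MTX or IgG interval within 203 kb.

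Among genes tied to KDM6A itself, 2 of the 9 genes of the KMT2C/KMT2D complex and the KDM6 demethylases on these autosomes had a control-only region, beside 4.07% of all genes. Kmt2c, the methyltransferase of the complex, had 137 against 83 reads in control 1, a fold of 2.18. Control 2 had 145 against 147 reads there, a fold of 1.03 with a deposited adjusted p of 0.384. The nearest MTX interval was 1800 bp away, and the gene also held 1 MTX-only region, with 11 and 10 MTX and 14 IgG intervals in all. It was the 1 gene of the 9 with an MTX-only region. Kmt2c spans 227 kb, and 14.3% of all genes of 100 to 300 kb had a control-only region. The region of Ncoa6, a coactivator subunit, had 94 against 86 and 114 against 72 reads, a fold of 1.55 ± 0.14 (SD, n = 2). Its control 1 interval ended at 155390200, outside the Ncoa6 span, which begins at 155390656. The region also overlapped Trp53inp2, and its midpoint lay at an end of that gene. None of the 8 genes of Polycomb repressive complex 2 had one.

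Developmental and metabolic lists held few or none. There was no region at 27 pluripotency, 29 Hox, 32 neural progenitor and patterning, 26 mesoderm and endoderm and 38 folate and one-carbon genes, nor at 19 fibroblast genes, included for feeder cells. With so few genes a count of 0 still allows a share of up to 9.25% for the folate list and 12.8% for the pluripotency list (exact 95% limits). Of 55 neural tube closure genes Shroom3 alone had one, an actin regulator of apical constriction, with 105 against 130 reads in control 1 (1.07, deposited adjusted p 0.248) and 160 against 123 in control 2 (1.36). Median gene lengths in these 7 lists were 3.74 to 38.3 kb, against 101 kb for the genes with a control-only region.

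Wnt genes had regions at 5 of 49 members (10.2%, exact 95% interval 3.40 to 22.2%), an interval that includes the 4.07% of all genes. Lgr5, a receptor for R-spondins, had 134 against 77 and 162 against 116 reads (1.88 ± 0.60, SD, n = 2), and its region also overlapped A930009A15Rik, whose span lies within Lgr5. Ror1, a receptor of Wnt5a, had 80 against 58 and 137 against 82 (1.78 ± 0.06). Gsk3b, a kinase of the beta-catenin destruction complex, had folds of 1.64 and 1.26, with an MTX interval 1000 bp away. Wnt6, a ligand, had 1.66 in control 1 and 0.947 in control 2. Apc, a scaffold of the destruction complex, had 95 against 100 and 84 against 51 reads (1.26 and 1.72). MTX-only regions reached 2 of the 49.

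Of 32 genes of the p53 and DNA damage list, 3 had one (9.38%, 1.98 to 25.02%). This interval and those of the germline (1.38 to 34.7%) and imprinted (0.984 to 26.03%) lists include the 4.07% of all genes. Mdm2, the ubiquitin ligase of p53, had 161 against 148 and 123 against 94 reads (1.40 ± 0.05, SD, n = 2). Atm, a DNA damage kinase, had 1.48 and 1.23, and Polk, a translesion polymerase, 1.48 and 1.77 in a region that lay mostly over Cert1. Prdm9, which sets recombination sites in meiosis, had 1.33 and 1.86, and with Sycp2, of the synaptonemal complex, made 2 of 18 germline genes. Sycp2 was at 0.975 in control 1 and 1.69 in control 2. Kcnq1, a potassium channel gene of an imprinted domain, had 72 against 27 reads in control 1 (3.53) but 160 against 177 in control 2 (0.942). Mest had 1.39 and 1.21 in a region centred in Copg2. These were 2 of 25 imprinted genes.

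Of 53 synaptic adhesion genes with a median length of 371 kb, 8 had a control-only region (15.1%, 6.75 to 27.6%), beside 28.6% of all genes of 300 kb and over. The list held 0.477 regions per Mb with margins, beside 0.682 in all genes of 300 kb and over. Tenm4, Adgrl3 (2.61 and 1.77), Negr1 (2.84 and 2.01) and Cntnap5a (1.88 and 2.66) ranked best. Of 35 glutamate and GABA receptor genes, 2 had a control-only region (5.71%, 0.700 to 19.2%) and 5 an MTX-only region (14.3%). Their median length was 224 kb. Of all genes of 100 to 300 kb, 14.3% had a control-only and 9.78% an MTX-only region. These shares were not tested against each other. Gabrb1, a GABA receptor subunit, was 1 of the 2 receptor genes with a control-only region. It had 96 against 62 reads in control 1 and 96 against 60 in control 2, a fold of 1.86 ± 0.27 (SD, n = 2). Of 20 cadherins, Cdh8 alone had one (5.00%, 0.127 to 24.9%), with folds of 1.72 and 1.61.

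Receptor and zinc finger families stood near or below the 4.07% of all genes. Of 1021 olfactory receptor genes 20 had a region (1.96%), of 354 vomeronasal receptor genes 8 (2.26%) and of 370 Zfp genes 12 (3.24%). Zfp37, Zfp644, Zfp420 and Zfp820 ranked best, with mean folds of 1.64 to 1.94. Olfactory receptor genes had 5.00 regions per Mb with margins, against 0.994 in all genes under 10 kb. Vomeronasal receptor genes had 2.07 per Mb and Zfp genes 0.856. These values are raised most for the shortest genes, since any overlap counted and regions had a median width of 5200 bp. Only 2 of 1005 miRNA hairpins of the RefSeq table lay wholly under a control interval of a region, Mir5128 within Strbp and Mir7061 within Plekha1, each in 1 library.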

How the data were processed

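ChIP-seq libraries were 2 control and 2 MTX KDM6A immunoprecipitations and 1 IgG immunoprecipitation of MTX cells. Groups and replicate numbers came from the sample titles, and the 4 inputs were not analysed here on their own. The submitters' processing notes name Bowtie2 and mm10. For the interval caller, the sources used here name none. The deposited lists, 1 per library, have 8 columns, no header and a 200 bp grid. The meaning of their columns was read from the values, and which library gave the background reads is not stated in the sources used here. Deposited read counts, unnormalized, are given for the immunoprecipitation and for a background library. The deposited ratio, called fold here, is immunoprecipitated over background reads times 1 constant per list (1.04 to 1.32). The deposited p-value matched the upper tail of a Poisson distribution in 100% of the intervals whose fold exceeded 1 (tolerance 0.01 in log10), and the last column holds the authors' adjusted p-values.

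Intervals were merged and sorted with Python 3.11.15, pandas 2.3.3 and scipy 1.17.1, and the rule was tested on simulated lists. Coordinates are mm10, counted from 1. Genes and promoter windows came from RefSeq tables of GRCm38.p6, the same build, and the promoter table is not complete. Named are the 10 best-ranked regions inside genes, 10 at gene ends and 6 away from genes, without predicted symbols, and up to 4 genes of each of 20 lists. Some results of these lists are not reported here. The members and lists were chosen with earlier results of these data known. No test between groups was made. Alternatives were a deposited adjusted p under 0.05, the better 50% of lists, equal list lengths, other overlap, merging, margin and window settings, and leaving out each library.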

Additional observations from a re-analysis of the deposited data

How the results depend on the processing

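No paired analysis was possible because no result comes from a test between groups. Counts stayed within 1.5 times of the values reported with a deposited adjusted p under 0.05 (all lists or control lists), direct overlap of 50%, merging up to 1 kb, no IgG filter, and with chromosome 11. In the better 50% of each list there were 667 regions, all with both control libraries under 0.05, of which 46.2% lay inside genes and 1.65% at gene ends, with 320 genes and median folds of 1.98 and 1.64. In lists of equal length there were 798 regions, 692 of them under 0.05 in both libraries, 47.4% inside genes and 1.63% at gene ends, with 393 genes and a median fold of 2.05 in control 1. With no MTX or IgG interval within 5 kb there were 878 regions, 687 of them under 0.05, 45.6% inside genes, and 449 genes. Any overlap in place of the midpoint gave 47.6% inside genes and 8.85% at gene ends, and windows of 2 kb gave 5.68% at gene ends. Leaving out 1 library gave 1880 to 25803 regions, 43.9 to 52.6% inside genes, 2.46 to 4.35% at gene ends, and 960 to 6570 genes. Median folds were then 1.59 to 1.73 in control 1 and 1.43 to 1.51 in control 2. Leaving out an MTX library gave 1438 to 1554 regions under 0.05 in both control libraries. This count needs both control lists and was not made without a control library. Leaving out a control library leaves no fold of that library. Fewer intervals per list or a looser rule is part of how each of these settings is built. The alternatives for the count under 0.05 were chosen after seeing the data.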
